A study of Mus musculus with 12 samples.

Results

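The genes of the cytosolic ribosome's proteins were described in newly made and total RNA of SIM-A9 cells, a mouse microglial cell line from the C57BL/6 strain. Members were taken by symbol, as the protein-coding genes Rpsa, Rplp0, Rplp1 and Rplp2 and those whose symbol starts with Rpl or Rps and a digit, with a mean of 50 or more total counts over 12 libraries. The ribosomal S6 kinases, Rps19bp1 and pseudogenes were left out. The rule gave 81 genes of the 30994 in the table, 32 of the small subunit and 49 of the large subunit. Of 85 annotated coding candidates, 4 fell below the count: Rps27 (mean 40.4 counts), Rpl35 (37.2), Rpl39l (24.6) and Rpl10l (0). Just above it were Rpl36a (mean 192 counts), Rpl10 (264) and Rpl3l (287.5).

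All cells were given 10 µM polymyxin B, which neutralises endotoxin, for 1 h, in serum-free medium. They then received 10 µM C13, a MOK inhibitor by the series title, or DMSO for 1 h. TDP-43 aggregates or sham aggregates were added at 5 µg/mL for 2.5 h, and 100 µM 4-thiouridine was then present for a further 90 min. The 4 groups were thus DMSO/sham, DMSO/TDP-43, C13/sham and C13/TDP-43. Each has 3 libraries, named below by group and replicate number. The labels call these biological replicates of 1 cell line and name no separate culture, so p-values measure the spread between these samples.

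A ribosome is built of ribosomal RNA and about equimolar amounts of its proteins, so cells make the mRNAs of these proteins together and in large amounts. The mRNAs are short and begin with a terminal oligopyrimidine tract, a C at the cap followed by a run of C and T (U in the RNA), through which mTOR and LARP1 govern their translation. They are textbook examples of abundant, long-lived mRNAs. Several proteins have known roles off the ribosome: RPL5 and RPL11 bind MDM2 when assembly is disturbed, and RPS6 is the substrate of the S6 kinases.

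Start sites of 8 members are printed because most members with a listed promoter had a pyrimidine run near their annotated start. Most members also moved together in level from library to library, and a link of the run to this was not tested. The sequences are RefSeq promoters of build GRCm38.p6, from 30 bases before to 20 bases from the annotated start, read on the gene's strand. Capitals mark each C followed by at least 7 further C or T.
Rps9 chr7:3704011-3704060 (+): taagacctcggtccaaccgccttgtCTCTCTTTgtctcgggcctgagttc
Rpl15 chr14:18270967-18271016 (-): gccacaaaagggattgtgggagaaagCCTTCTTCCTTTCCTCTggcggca
Rps6 chr4:86857348-86857397 (-): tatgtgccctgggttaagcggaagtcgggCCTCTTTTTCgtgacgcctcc
Rps12 chr10:23787190-23787239 (-): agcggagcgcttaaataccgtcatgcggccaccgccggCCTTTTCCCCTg
Rpl39 chrX:37085203-37085252 (-): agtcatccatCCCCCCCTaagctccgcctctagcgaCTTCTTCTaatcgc
Rpl4 chr9:64173357-64173406 (+): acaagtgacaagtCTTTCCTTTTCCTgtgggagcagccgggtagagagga
Rps27l chr9:66946056-66946105 (+): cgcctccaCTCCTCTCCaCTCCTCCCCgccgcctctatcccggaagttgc
Rpl3l chr17:24727796-24727845 (+): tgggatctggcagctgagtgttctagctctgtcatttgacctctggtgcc

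The run covers the annotated start in Rps9, Rpl15 and Rps6. It begins after the start in Rps12 and ends before it in Rpl4 and Rps27l, and Rpl39 has a run on each side. The printed window of Rpl3l, a paralog of Rpl3 known from heart and skeletal muscle, holds none. Rpl3l has a run at least partly beyond the printed bases and is counted below among the members with one. The RefSeq table held a promoter for 61 of the 81 members. Between 20 bases before and 50 bases after the start, on the gene's strand, 45 of these 61 (73.8%) had such a run, against 20.03% of all 32851 promoters in the table. The letters CCGGAA, the core bound by ETS factors, were present on either strand in the 300 bases of 30 of the 61 members (49.2%), against 14.9% of all promoters. A match is a description of the letters and not of a bound site, and a counted run need not begin at the start.

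Total reads per library numbered 17436397 to 41779882. Between 552042 and 2722812 of them were nascent, that is, carried the base changes left by 4-thiouridine. Of 16 microglial and macrophage markers, 12 averaged at least 1 CPM (a gene's reads scaled to a fixed library total after correction by TMM factors), with a summed level of 984 to 1498 CPM. Tmem119, C1qa and Sall1 were below 1 CPM, and Fcrls was at 0. Astrocyte and fibroblast markers summed to at most 1.76 CPM and neuronal markers to at most 4.17 CPM. Mbp of the oligodendrocyte list averaged 21.8 CPM with Mog, Mag and Olig2 at or near 0, and Kdr of the endothelial list averaged 121 CPM with Cdh5 and Cldn5 at 0. Mitochondrial ribosomal RNA took 1.17% to 3.70% of total reads. In these bulk samples fewer cells and less RNA per cell cannot be told apart.

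Members were abundant in total RNA. CPM in nascent RNA is taken over nascent reads in the same way. Both are taken over the reads of genes kept by the filter on low counts. Relative to plain CPM over all reads of a library, values were 0.891 to 1.56 times as large in nascent RNA. In total RNA they were 0.955 to 1.04 times as large. These ratios hold the TMM factors and the left-out reads together, and plain CPM is what is called CPM without TMM factors below. Reads come from mRNA 3′ ends, so CPM was used as the level of each gene with no correction for length. The median member had 351 CPM, against 25.9 CPM for all 9933 genes with a mean of at least 50 counts, and members together took 3.68% to 6.82% of total reads. Rps14 had the highest deposited level, a mean of 5014 CPM, but all its counts were multiples of 5. The counts of 17 members shared such a common factor, as did those of 1917 of all 9933 genes with a mean of at least 50 counts. No reason for it is given in the sources used here. As deposited, Rps9 was next with 3974 CPM, followed by Rps27a, which encodes a ubiquitin fusion, with 3304 CPM, Rpl41, the smallest ribosomal protein, with 2989 CPM, Rps23 with 2163 CPM, Rpl22 with 1995 CPM and Rpl15 with 1781 CPM. With every member divided by its factor, Rps9 was highest, followed by Rpl41, Rps23, Rpl22 and Rpl15, whose counts have no factor, and then Rps27a at 1652 CPM (rank 6), while Rps14 at 1003 CPM ranked 10.

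The lowest levels as deposited were those of Rpl36a (6.31 CPM), Rpl10 (8.48 CPM), Rpl3l (8.77 CPM), Rps18 (11.2 CPM) and Rplp2 (11.9 CPM). Divided by their factors, Rplp2, Rpl10 and Rpl3l had 3.97, 4.24 and 4.38 CPM and were lower than Rpl36a. RPLP0, RPLP1 and RPLP2 form the stalk that recruits elongation factors, and Rplp0 and Rplp1 averaged 359 and 887 CPM. Shared sequence was looked at in the last 250 bases of 1 annotated transcript per gene. Other transcripts of a gene can end elsewhere, and their ends were not looked at. Of the 81 members, 52 had at least 1 stretch of 50 bases that also occurs in a transcript of another gene, and 40 had over 50% of their stretches shared. In the transcripts used, all stretches were shared in Rpl36a, Rpl10 and the left-out Rps27, and none in Rpl3l and Rplp2. Rplp2 has 6 annotated transcripts, and the one used has 964 bases. The transcripts used had a median of 1260 bases for members with none shared and 642.5 bases for those with over 50% shared. A gene with none shared here may thus share sequence at another end. Levels of the 52 genes are uncertain, since the counting of reads that fit several genes is not given in the sources used here. Across members the share of such stretches had a Spearman rho of -0.12 with log2 level.

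Paralogs differed in their deposited level relative to the canonical gene. As deposited, Rpl22l1 averaged 79.0 CPM against 1995 CPM for Rpl22, whereas Rpl7l1 averaged 75.9 CPM against 24.5 CPM for Rpl7. Rps27l had 136 CPM and Rps27rt 216 CPM. Rpl36al, at 1096 CPM, exceeded Rpl36a, at 6.31 CPM, and Rps27l and Rps27rt exceeded the left-out Rps27, at 1.31 CPM. Divided by their factors, Rpl22l1, Rps27l and Rpl36al had 39.5, 68.0 and 365 CPM, with the same order within each pair. All stretches of Rpl36a and Rps27 occur in other genes. So do 62.7% of those of Rpl36al, 85.6% of Rps27rt, 54.2% of Rpl22l1, 22.9% of Rps27l, 67.7% of Rpl7 and 2.99% of Rpl7l1. How reads that fit several genes were counted may bear on these differences, which was not tested.

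**Figure D1:**
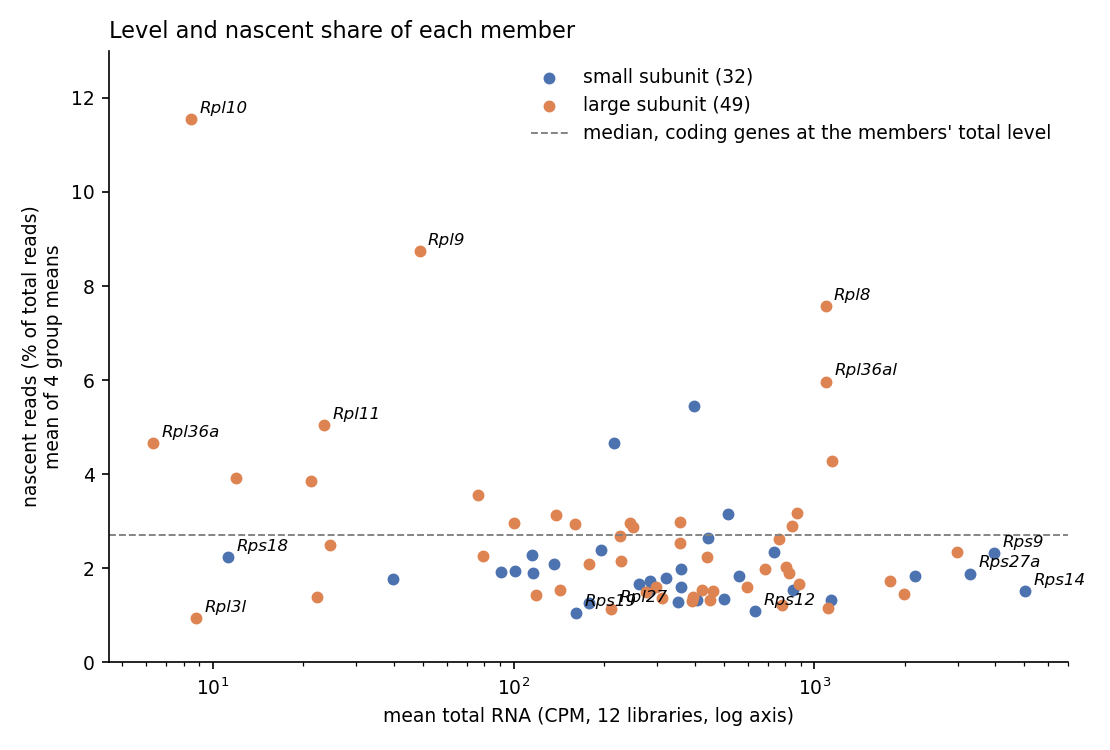
Each point is 1 member, with its mean total level in CPM on a log axis and its nascent share, as the mean of the 4 group means, on a linear axis. Rpl10 and Rpl9 combine a low level with a high share, Rpl8 and Rpl36al are high at larger levels, and most members lie under the dashed median of coding genes at similar levels (2.71%).

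A smaller part of the members' reads was nascent than of other genes' reads. The pooled nascent share of the 81 genes was 2.56%, 5.34% and 2.10% in DMSO/sham replicates 1 to 3, and 2.05%, 2.31% and 1.58% in DMSO/TDP-43. It was 2.22%, 1.58% and 1.10% in C13/sham and 1.76%, 2.16% and 1.78% in C13/TDP-43. All other genes had 1.91% to 7.24%, and the members were below them in 12 of 12 libraries. The highest value, in DMSO/sham replicate 2, was also that library's highest for other genes. Mean shares were 3.33% ± 1.76, 1.98% ± 0.368, 1.63% ± 0.560 and 1.90% ± 0.225 (SD, n = 3) in the order of groups above. The ranges of the groups overlapped in every pair.

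**Figure D2:**
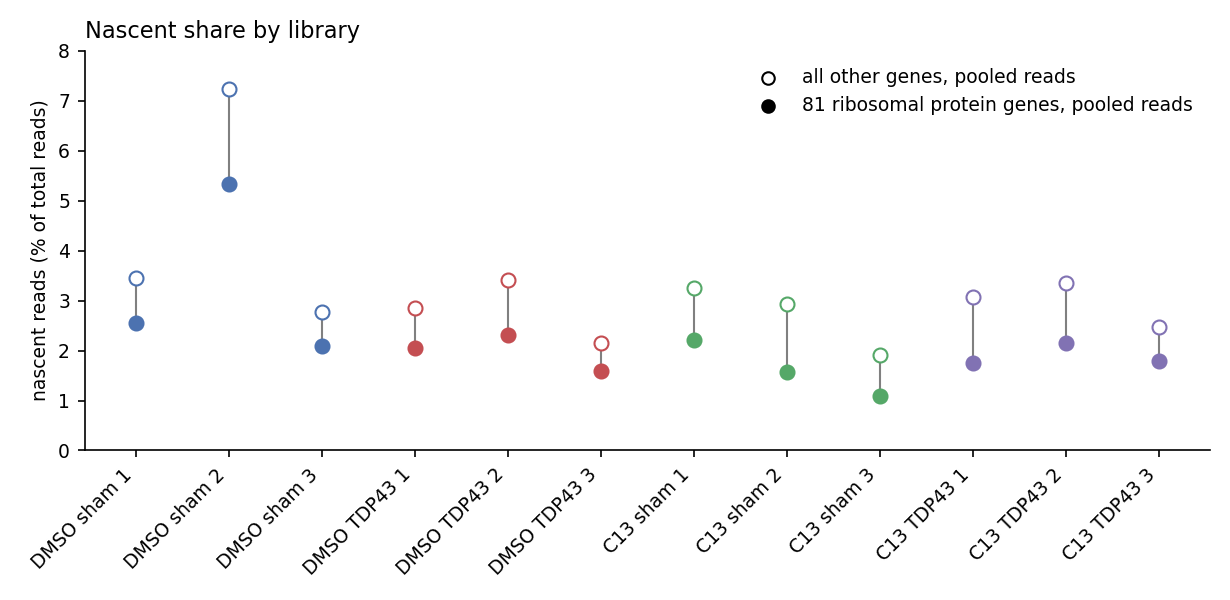
Filled points give the nascent reads of the 81 members and open points those of all other genes, each as a percentage of their total reads, in 12 libraries coloured by group. The filled point is the lower one in 12 of 12 libraries, from 1.10% against 1.91% in C13/sham replicate 3 to 5.34% against 7.24% in DMSO/sham replicate 2.

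Among single members the median share was 1.95%, with quartiles of 1.52% and 2.88%. The median was 2.65% for all genes with a mean of at least 50 counts and 2.71% for the 1286 protein-coding genes at or above the members' lower quartile of level. In single libraries the median member was below the median gene in 7 and above it in 5 of 12. The small subunit genes had a median of 1.83% and the large subunit genes 2.24%.

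Rpl8, a protein next to the peptidyl transferase centre, had a high share in every library. Its values were 8.47%, 9.45% and 8.31% in DMSO/sham, 8.51%, 6.86% and 8.18% in DMSO/TDP-43, 7.35%, 7.29% and 4.19% in C13/sham, and 8.38%, 7.22% and 6.64% in C13/TDP-43. Only C13/sham replicate 3 was under 6%. Rpl36al averaged 5.97% (3.53% to 11.7%), above the nascent share of the whole library in 12 of 12 libraries. Rps12 was above it in 0 libraries.

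Rpl10 and Rpl9 had the highest averages, 11.6% and 8.74%, and varied widely between libraries. Both were above the nascent share of the whole library in 8 of 12 libraries. RPL10 joins the large subunit last, and its share ran from 0 in C13/sham replicates 2 and 3 to 31.6% in DMSO/sham replicate 2, on 0 to 246 nascent reads. Rpl9 ran from 0.394% to 28.2%, and the 3 libraries of C13/sham were among its 4 lowest. Both genes share all stretches of their 3′ end with other genes.

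Low shares were found among abundant and weakly expressed members. Rps12, of the small subunit's beak, had 1.09% (0.105% to 3.26%), Rpl27a 1.16% and Rpl7a 1.21%. Rps19, the gene most often mutated in Diamond-Blackfan anaemia, had 1.06%, with 0 in 2 libraries. Rpl3l averaged 0.946% and had 0 nascent reads in 8 libraries, with a mean of 3.0. Rps14, whose level was highest as deposited, had 1.51%. Rplp0 stood at 2.98%, Rplp1 at 1.66%, Rpsa, which also encodes the laminin receptor, at 2.35%, Rpl3 at 3.12%, Rpl5 at 1.98%, Rpl11 at 5.05%, Rps3 at 1.74% and Rps6 at 1.99%.

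The ratio of nascent to other reads was then fitted in edgeR over all 4 groups, with the typical gene, meaning the median of 9933 genes, set to 0 on the log2 scale. Of the 81 members, 21 were above it and 5 below it at an edgeR adjusted p below 0.05, against 19.1% of all genes above and 7.23% below. The members' calls were near the background, and their median of 0.15 lay near the -0.0038 of all genes. Coding genes at the members' level had a median of 0.64, with 633 of 1286 above and 21 below. Rpl8 (log2 2.53, SE 0.16, edgeR adjusted p = 6.48e-12), Rpl36al (2.12, SE 0.15, 1.06e-10) and Rpl9 (1.85, SE 0.38, 6.30e-04) were among the highest. Counts of Rpl8 and Rpl36al share a common factor of 2 and 3, so how many independent reads they hold is unknown. Below the typical gene were Rpl3l, Rpl27, Rps12, Rpl7a and Rpl27a, from -3.84 to -0.51. With a library left out, 15 to 23 members were above and 1 to 5 below, the last at 1 without DMSO/sham replicate 1 or C13/TDP-43 replicate 1.

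Direction depends on the reference in this test. Set against the library's reads as a whole, which are weighted to abundant genes, 3 members were above and 51 below, with a median of -1.01. The median gene itself lies near -1.16 on that reference, below the median member. Among the genes that pass the filter on nascent counts, 9 members were above and 18 below, with a median of -0.275. Shares of all genes called are not given here for either reference. Rps4x, Rps9, Rpl41, Rplp0, Rpsa and Rpl3 are among the members whose direction turned against the library's reads, whereas Rpl8 and Rpl36al stayed above and Rpl7a, Rps12, Rpl27 and Rpl27a below under each reference.

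In total RNA most members were high or low together from library to library, also within each group. As the difference of log2(CPM + 1) from a gene's own mean, the median member was at 0.013, 0.67 and -0.42 in DMSO/sham replicates 1 to 3. It was at -0.17, 0.13 and -0.21 in DMSO/TDP-43, 0.19, 0.56 and -0.39 in C13/sham, and 0.33, -0.13 and -0.57 in C13/TDP-43. Each group thus held libraries on both sides of 0. DMSO/sham replicate 2 and C13/sham replicate 2 were highest, and C13/TDP-43 replicate 3 was lowest, 2.37-fold apart at the ends. In DMSO/sham replicate 2, 80 of 81 members exceeded their own mean, and in DMSO/sham replicate 3 only 3 did. The SD of the library median within groups was 0.44 and the 4 group means spanned 0.24, so the spread inside groups was the larger. Replicate 3 was the lowest library in 4 of 4 groups, and it also had its group's lowest nascent share of all reads in 4 of 4. The labels give no batch behind the numbers, and the part of one was not tested.

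Rps12 shows this pattern most closely among the 81 members, with r = 0.990 to the mean of the others over 12 libraries. Its total level was 601, 971 and 433 CPM in DMSO/sham, 507, 697 and 525 CPM in DMSO/TDP-43, 703, 939 and 439 CPM in C13/sham, and 813, 589 and 406 CPM in C13/TDP-43. All 4 groups overlapped. Of the 81 members, 70 had r above 0.7 with the other members, and the median r between pairs was 0.78. Rpl4, Rps18, Rpl9 and Rps23 had r of 0.45 to 0.47, and Rpl3l alone was negative, at -0.27. These correlations share libraries and scaling and are given as a description. In nascent RNA the median r between pairs was 0.17.

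**Figure D3:**
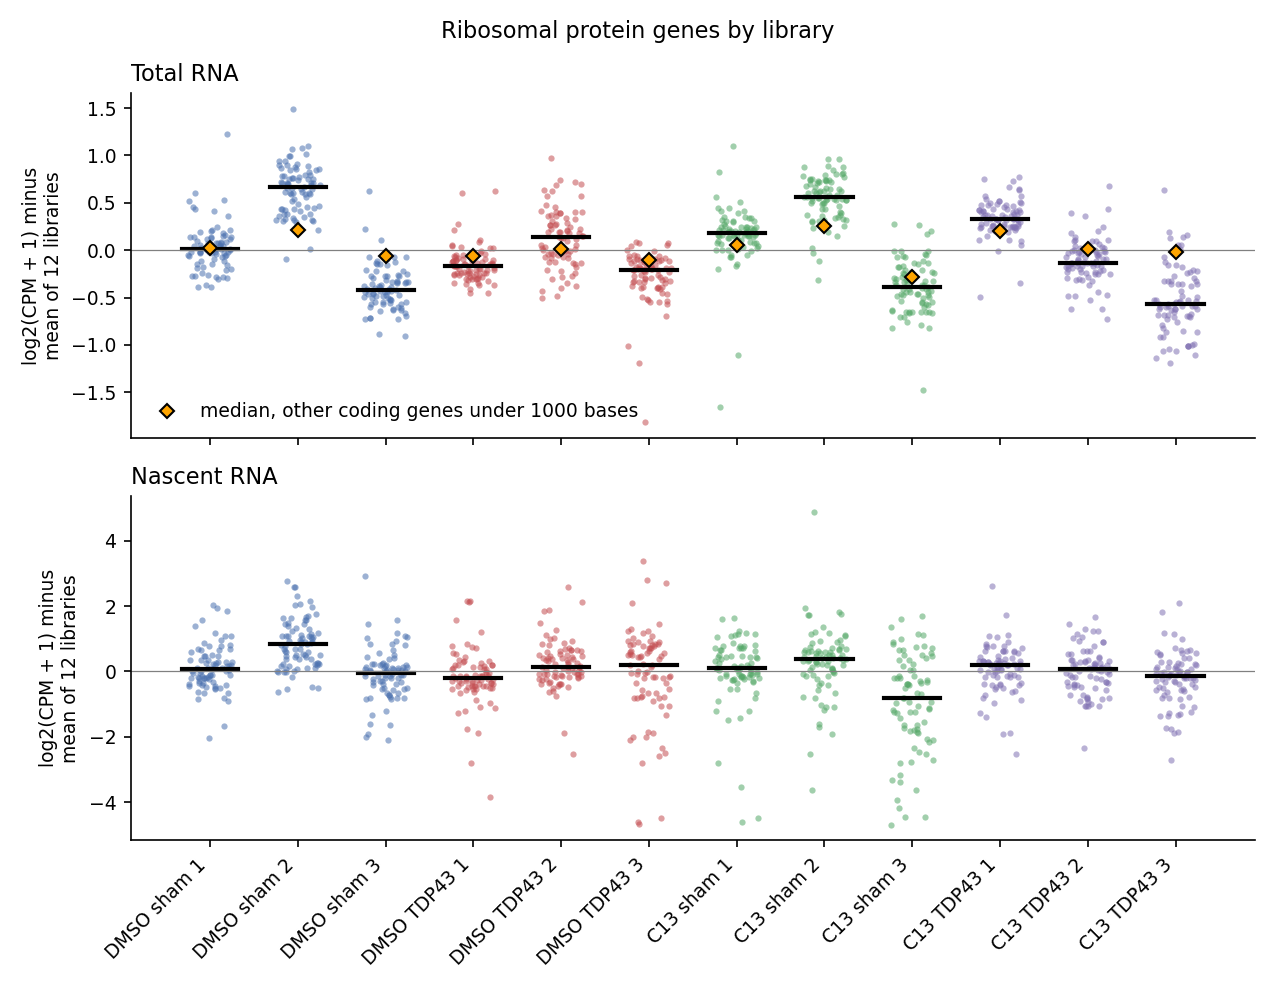
Points are the 81 members in 12 libraries, as log2(CPM + 1) minus the gene's mean over libraries, for total RNA above and nascent RNA below, with black bars at the median and diamonds at the median of other coding genes with transcripts under 1000 bases. In total RNA the points move as a block, from a median of 0.67 in DMSO/sham replicate 2 to -0.57 in C13/TDP-43 replicate 3, and the diamonds move less.

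Other genes of the same ribosome went with them. Of all 9852 other genes with a mean of at least 50 counts, the 5 nearest to the members' mean were Fau (r = 0.989), Rack1 (0.965), Atp5k (0.964), Capg (0.964) and Atp5h (0.954), and 4.48% of other genes had r above 0.7. Fau encodes ribosomal protein S30 and Rack1 a scaffold on the small subunit. Fau stood at 1119, 1803 and 809 CPM in DMSO/sham, 950, 1234 and 817 CPM in DMSO/TDP-43, 1326, 1660 and 757 CPM in C13/sham, and 1351, 947 and 631 CPM in C13/TDP-43. It was thus highest and lowest in the same libraries as the median member.

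The other lists moved less closely with the members. The share with r above 0.7 was 27.9% of 43 translation factors, 20.6% of 34 proteasome subunits, 12.8% of 78 mitochondrial ribosomal proteins, 7.41% of 27 mTOR and oligopyrimidine regulators and 7.32% of 82 ribosome assembly factors, against 86.4% of the members. Median r was 0.22 for translation factors and 0.081 for assembly factors. The median transcript of a member was 835 bases long, against 2916 for all genes. Other coding genes under 1000 bases had a median r of 0.36, with 18.8% above 0.7, and the 149 of these at or above the members' lower quartile of level had 0.52, with 28.9% above 0.7. Those of 4000 or more bases had -0.11, with 1.52% above 0.7. Among the members themselves, those under their median length and those at or over it had medians of 0.88 and 0.90. The 29 with no shared stretch in the transcript used had 0.89. The part of transcript length in the co-movement was not tested beyond these values.

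Library properties beside this pattern went several ways. The nascent share of all reads was highest (7.11%) in DMSO/sham replicate 2, where members were highest, but it was 2.85% in C13/sham replicate 2. Mitochondrial ribosomal RNA was 1.49% and 1.29% of reads in the highest and lowest library. Their part in the members' levels was not tested. The SD of log2 total level within groups had a median of 0.47 over members, 0.27 over coding genes at their level and 0.30 over proteasome subunits.

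The first comparison asked what TDP-43 aggregates did in the absence of C13. Of 81 members in total RNA, 74 had lower fitted values with aggregates and 7 higher, with a median log2 fold change of -0.23 against -0.0075 for all genes. None passed (0 of 81, with 0.0% of 11827 genes called by edgeR at an adjusted p below 0.05). Unadjusted p was below 0.05 for 2 members and 516 genes, and DESeq2 called 0 members and 15 genes. The count of lower members rests on 1 library, as the median was 0.13 without DMSO/sham replicate 2.

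Rpl4, a large subunit protein lining the exit tunnel, had 555, 637 and 322 CPM with sham and 303, 306 and 327 CPM with aggregates. Sham replicate 3 lay within the aggregate range and the other two lay above it. Its log2 fold change was -0.69 (SE 0.25), and its edgeR adjusted p = 0.999. Rpl39, another protein of the tunnel, had 891, 1035 and 768 CPM with sham and 698, 700 and 705 CPM with aggregates, which do not overlap, and a log2 fold change of -0.36 (SE 0.23). Rps6 had 389, 441 and 334 CPM and then 327, 270 and 313 CPM, also without overlap. With Rpl3l these were the 3 members whose groups did not overlap, all lower (3 of 81), against 6.41% of genes lower and 5.49% higher. In CPM without TMM factors 4 members had no overlap, Rpl39, Rps6, Rpl4 and Rpl5, and Rpl3l overlapped. Overlap in this scaling was taken for members only, so no share of all genes stands beside it. Rpl7 and Rps27rt had the smallest p among members with higher values, with log2 fold changes of 0.20 and 0.08.

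In nascent RNA, where 79 members passed the filter on low counts (not Rps18 and Rpl3l), 52 had lower and 27 higher values, with a median of -0.17 against -0.044 for all genes. None passed (0 of 79 members, 0.0% of 7078 genes), with 3 members and 226 genes at an unadjusted p below 0.05. DESeq2 called 0 members and 4 genes. Nascent Rps14 had 2124, 5980 and 1565 CPM with sham and 1163, 1698 and 1619 CPM with aggregates, a log2 fold change of -1.11 (SE 0.47), with 1 sham library inside the aggregate range. Rpl26, whose protein lies at the exit tunnel, had 1097, 1008 and 568 CPM and then 376, 503 and 399 CPM, without overlap. It was among 5 members lower without overlap, with 1 higher of 79, against 464 lower and 265 higher of 7078 genes. Rpl30 had the largest fitted increase among members, 1.91 (SE 0.82), with 59.4, 125 and 52.5 CPM and then 85.3, 143 and 665 CPM, so that DMSO/TDP-43 replicate 3 stood far above the rest. Without DMSO/sham replicate 2 the nascent median was 0.086, and with the library sizes of total RNA it was -1.14.

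With C13 present, 65 of 81 members had lower total levels with aggregates, with a median of -0.19 against -0.021 for all genes. Again 0 of 81 members and 0.0% of 11827 genes passed in edgeR, with 3 members and 1045 genes at an unadjusted p below 0.05, and DESeq2 called 0 members and 136 genes. Rpl4 went the other way, from 391, 323 and 286 CPM with sham to 671, 530 and 418 CPM with aggregates. These groups do not overlap, and aggregates gave 0.70 on the log2 scale (SE 0.25), with an edgeR adjusted p = 0.508. It was the only member without overlap (1 of 81 higher, 0 lower), against 6.69% of genes higher and 6.07% lower. Without TMM factors Rpl10a, which was lower, had no overlap either, again with no share of all genes beside it. Rpl10a and Rps14 had the smallest p among lower members, with -0.59 (SE 0.26) and -0.63 (SE 0.29). The median ranged from -0.47 without C13/TDP-43 replicate 1 to 0.087 without C13/sham replicate 2.

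Nascent values under C13 were close to even, 44 lower and 35 higher of 79, with a median of -0.052. None passed in edgeR (0 of 79 members, 0.0% of 7078 genes), with 4 members and 598 genes at an unadjusted p below 0.05. DESeq2 called 1 member and 75 genes. Rpl9 was the member furthest apart. It had 5.07, 17.7 and 11.9 nascent CPM with sham, on 3, 10 and 6 reads, and 148, 109 and 302 CPM with aggregates. In the DMSO groups it had 183, 222 and 103 CPM with sham and 315, 99.4 and 15.4 CPM with aggregates. All 3 C13/sham values thus lay below those of C13/TDP-43 and of DMSO/sham, while DMSO/TDP-43 replicate 3 lay among them. With aggregates under C13 it was 4.00 higher on the log2 scale (SE 1.01), with an edgeR adjusted p = 0.530, and DESeq2 called it (adjusted p = 0.0122). Total Rpl9 had overlapping groups, with 43.9, 58.0 and 25.7 CPM and then 53.8, 49.8 and 52.9 CPM. Its shared 3′ sequence and few reads limit these values.

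Nascent Rps14 had 4074, 1991 and 3432 CPM with sham and 1002, 899 and 1027 CPM with aggregates under C13, without overlap, a log2 difference of -1.70 (SE 0.47), with an edgeR adjusted p = 0.530. All its counts are multiples of 5, so how many independent reads they hold is unknown. The 3 groups other than C13/TDP-43 had at least 1 library above 1600 CPM. For aggregates under C13, 5 of 79 nascent members were higher and 5 lower without overlap, against 557 and 370 of 7078 genes.

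C13 was compared with DMSO in sham-treated cells to ask what the compound did without aggregates. Total levels of the members lay evenly around 0, with 44 higher and 37 lower and a median of 0.016. None passed in edgeR (0 of 81 members, 0.0% of 11827 genes), and DESeq2 called 0 members and 79 genes. An unadjusted edgeR p below 0.05 was found for 1 member and 722 genes. That member was Rpl4, with 555, 637 and 322 CPM with DMSO and 391, 323 and 286 CPM with C13 and a log2 fold change of -0.60 (SE 0.25). Rplp0 had the smallest p among higher members, 0.52 (SE 0.26). Rpl3l alone had no overlap, with 1 member lower and 0 higher, against 5.72% and 4.41% of genes, and it overlapped without TMM factors. The median moved to 0.39 without DMSO/sham replicate 2 and to -0.23 without C13/sham replicate 2.

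Nascent members were lower with C13 in 54 of 79 cases, with a median of -0.33 against -0.045 for all genes and 0.075 for coding genes at the members' level. None passed in edgeR (0 of 79 members, 0.0% of 7078 genes), and 488 genes had an unadjusted p below 0.05. Among these were 2 members, Rpl9 (-3.86, SE 1.01) and Rpl10 (-5.06, SE 1.74). DESeq2 called 1 member, Rpl9 (adjusted p = 0.0270), and 28 genes. Groups did not overlap for 3 members higher and 8 lower of 79, against 363 and 647 of 7078 genes. Rpl10 had 42.9, 83.2 and 1.84 nascent CPM with DMSO and 3.38, 0 and 0 CPM with C13, the last on 2, 0 and 0 reads. The median was 0.061 without DMSO/sham replicate 2, and -1.32 with the library sizes of total RNA.

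In cells given aggregates, the comparison named by the series title, total levels of the members again lay on both sides of 0 with C13, with 46 higher and 35 lower and a median of 0.027. None passed in edgeR (0 of 81 members, 0.0% of 11827 genes). An unadjusted p below 0.05 was found for 2 members and 707 genes, and DESeq2 called 0 members and 50 genes. These members were Rpl4, with 303, 306 and 327 CPM with DMSO and 671, 530 and 418 CPM with C13 (log2 0.79, SE 0.25, edgeR adjusted p = 0.777), and Rps23. Rps23, a protein of the decoding centre, had 2019, 1474 and 1486 CPM and then 2521, 2703 and 2305 CPM (log2 0.60, SE 0.25). With Rpl39 they were the 3 members whose groups did not overlap, all higher (3 of 81), against 6.97% of genes higher and 6.48% lower. In nascent RNA 47 of 79 members were lower, with a median of -0.21 against 0.022 for all genes. None passed in edgeR (0 of 79 members and 0.0% of 7078 genes), with 2 members and 325 genes at an unadjusted p below 0.05. DESeq2 called 0 members and 15 genes. Nascent Rpl26 had the smallest p (log2 1.29, SE 0.46), with 376, 503 and 399 CPM with DMSO and 1187, 870 and 1080 CPM with C13. It was among 7 members higher without overlap, with 5 lower of 79, against 426 higher and 307 lower of 7078 genes. The total median ranged from -0.20 without C13/TDP-43 replicate 1 to 0.21 without C13/TDP-43 replicate 3.

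**Figure D4:**
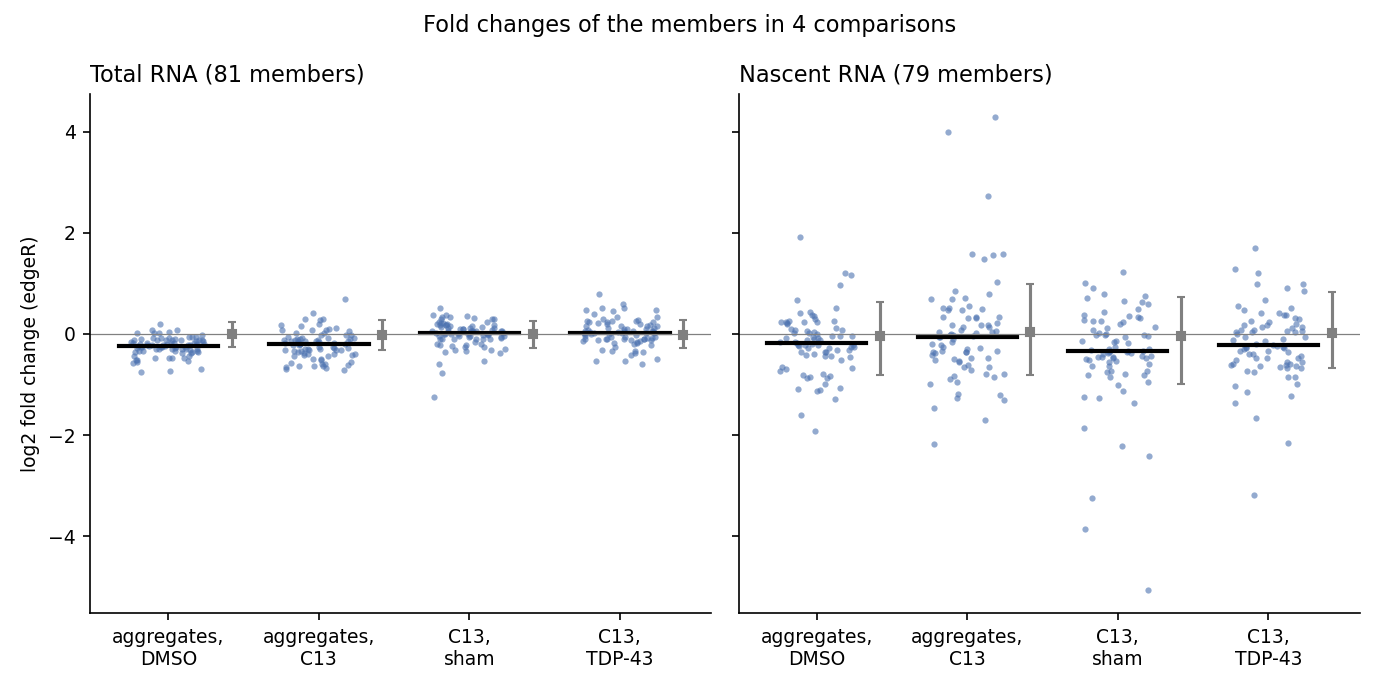
Points are edgeR log2 fold changes of members in total RNA (81) and nascent RNA (79) for 4 comparisons, with black bars at their median and grey squares with bars for the median and quartiles of all genes with a mean of at least 50 counts. Total RNA medians are -0.23 and -0.19 for aggregates and 0.016 and 0.027 for C13, nascent RNA spreads more widely, and no point passed the adjusted threshold.

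Whether the response to aggregates differed with C13 was tested as an interaction. Rpl4 had the smallest p among members in total RNA, with a log2 interaction of 1.39 (SE 0.35, unadjusted p = 0.00114, edgeR adjusted p = 0.244). DESeq2 called it (adjusted p = 0.0280). Its fold change with aggregates was -0.69 under DMSO and 0.70 under C13, and its lowest groups, DMSO/TDP-43 (312 ± 12.7 CPM, SD, n = 3) and C13/sham (333 ± 53.1 CPM), lay below DMSO/sham (505 ± 163 CPM) and C13/TDP-43 (540 ± 127 CPM). The whole span of Rpl4, introns included, overlaps 5 annotated genes on its strand. Whether their exons overlap was not looked at, so it is not known if reads from these could be counted for it. Rps9, of the small subunit body, had 4643 ± 1073, 3161 ± 484, 3670 ± 1143 and 4420 ± 1175 CPM in the order of groups, and an interaction of 0.82 (SE 0.37, unadjusted p = 0.0400, edgeR adjusted p = 0.590). In total RNA edgeR called 0 of 81 members and 0.0% of 11827 genes, with 2 members and 941 genes at an unadjusted p below 0.05. DESeq2 called 1 member and 146 genes there. In nascent RNA edgeR called 0 of 79 members and 0.0% of 7078 genes, with 3 members and 537 genes at an unadjusted p below 0.05. DESeq2 called 0 members and 54 genes there. The members' median interaction was 0.0038 in total and 0.028 in nascent RNA.

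**Figure D5:**
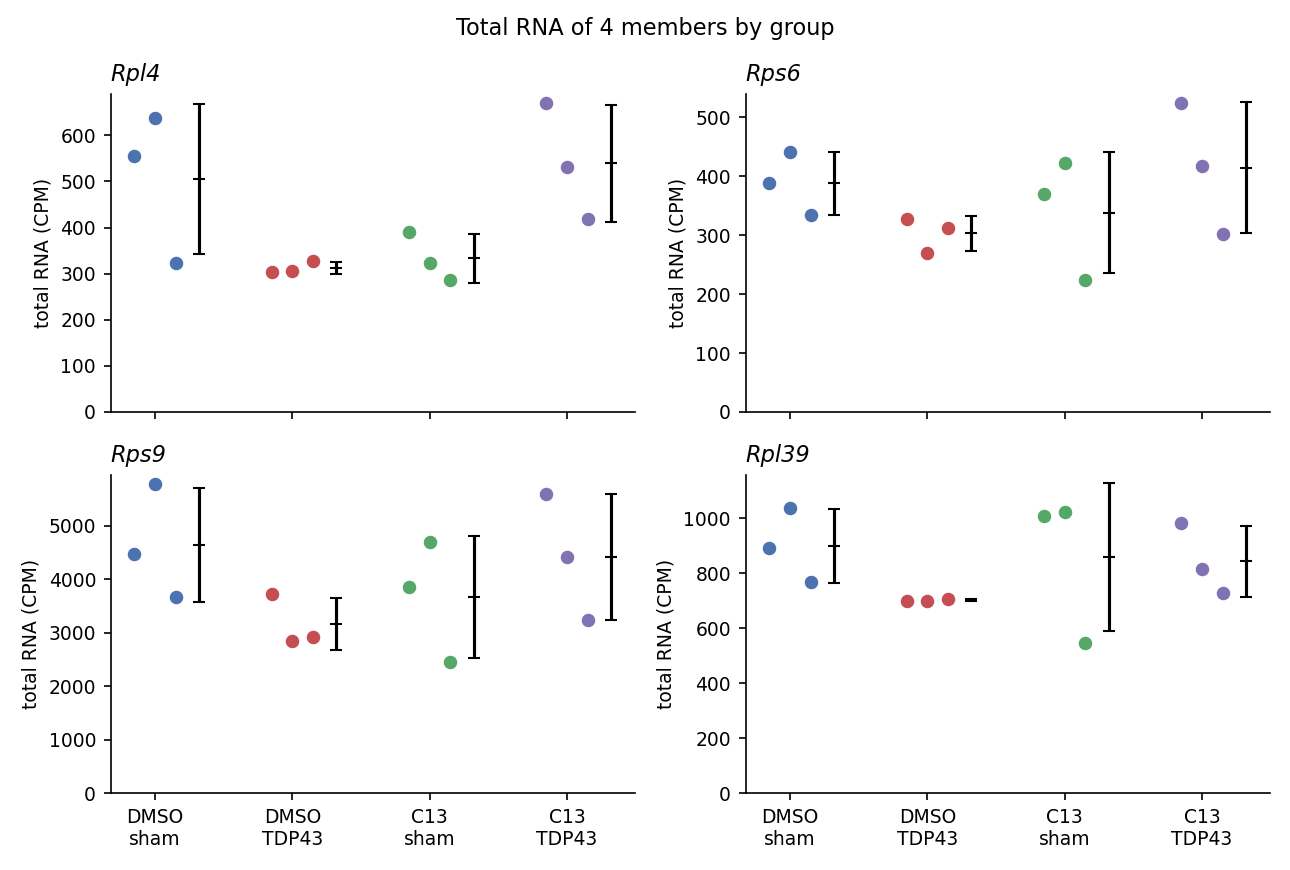
Points are total RNA in CPM of Rpl4, Rps6, Rps9 and Rpl39 in 3 libraries of each of 4 groups, with the mean and SD beside them. Rpl4 is low in DMSO/TDP-43 (312 CPM) and C13/sham (333 CPM), and the 3 DMSO/TDP-43 libraries of Rpl39 lie together under every DMSO/sham library.

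No member's nascent reads were called apart from its other reads in a comparison of groups. In the fit of nascent to other reads, 0 of 81 members passed in each of the 4 pairwise comparisons and the interaction. Of all 9933 genes, 0.0101% passed for aggregates against sham under C13 and 0.0% in the others. An unadjusted p below 0.05 was found for 1 member for aggregates under DMSO and 5 under C13. It was found for 3 members for C13 in sham cells, 2 for C13 in aggregate-treated cells and 4 for the interaction. Over all 9933 genes the counts were 267, 488, 465, 314 and 489 in the same order. DESeq2 was not run on this test. The members' median for C13 against DMSO in sham cells was -0.45, and that of all genes was -0.45.

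Among the related lists, 0 genes were called in total RNA in any of the 5 comparisons by edgeR. Mitochondrial ribosomal proteins had 54 of 78 lower for aggregates under DMSO, with a median of -0.12, and ribosome assembly factors had 49 of 82 lower, with -0.090. Translation factors had 23 of 43 lower and a median of -0.016, and mTOR and oligopyrimidine regulators 11 of 27 lower and 0.14. Under C13 the medians were -0.051, -0.072, -0.17 and -0.029 in the same order. For the nascent to other ratio over the 4 groups, assembly factors had 32 of 82 above the typical gene and 0 below, and translation factors 19 of 43 above and 1 below. Senp3, a SUMO protease of ribosome assembly, had a nascent share of 15.3%, Ppan 14.2% and Sesn2, a stress-induced inhibitor of mTORC1, 26.1%, while Eef2, the translocase, had 2.43%. Fau and Rack1 had 3.39% and 3.84%, and both were above the typical gene.

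By their medians, members had shorter transcripts and a lower T content at the 3′ end than all genes. Members varied in both, and their ranges overlapped those of all genes. The T content of the last 250 bases, which bounds how many labelled bases a read can show, had a median of 24.8% over members and 30.4% over all genes. Across the 81 members, T content and nascent share had a Spearman rho of 0.023, and across 9930 genes -0.0066. Members lie on 19 chromosomes, with 14 on chromosome 7, and the whole spans of 35, introns included, overlap another annotated gene on their strand.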

How the data were processed

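Polymyxin-treated SIM-A9 cells were labelled with 4-thiouridine, RNA was treated with iodoacetamide and 3′ end libraries were made, per the labels' protocols. The authors deposited raw counts per gene in a nascent and a total table of 12 libraries. The submitters' processing notes name build GRCm38. Not given in the sources used here: aligner, counter, and the rule for nascent reads. Symbols came from GENCODE vM21 (GRCm38), which matched 30940 of 30994 identifiers.

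Genes kept by filterByExpr were scaled by TMM and fitted by edgeR 4.0.16 (R 4.3.3) quasi-likelihood, with 12 libraries in 1 fit and Benjamini-Hochberg adjustment over all genes at 0.05. Nascent and other reads were fitted together with a library term and centred on the median gene, a shift of -1.16 from the library's reads as a whole. Alternatives were DESeq2 1.42.0, its size factors, no filter, a replicate block, each library left out, only the groups compared, 2 libraries left out that stood apart, counts divided by a common factor, other scalings and, chosen after seeing the data, CPM without TMM factors for the overlap of groups.

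Members and lists were chosen with earlier results of these data known. Named were the highest and lowest members in level and nascent share, the 2 smallest p per direction and comparison, called members, paralogs, stalk proteins and other fixed symbols, list genes and the 5 genes nearest the members' mean. Replicates differed by chi-square per degree of freedom of at least 70.5. The scripts were tested on simulated counts. Some genes are not reported here.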

Additional observations from a re-analysis of the deposited data

Results flagged for a closer look

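Nascent Rpl37a, a zinc-binding protein of the large subunit, had aggregate responses of opposite direction under DMSO and C13, with groups that do not overlap in either when CPM is scaled by TMM. It had 101, 63.2 and 57.1 CPM in DMSO/sham, 105, 144 and 104 CPM in DMSO/TDP-43, 145, 124 and 145 CPM in C13/sham, and 59.9, 64.8 and 54.4 CPM in C13/TDP-43. The log2 interaction was -1.88 (SE 1.00, edgeR adjusted p = 0.696). The same 4 groups give opposite directions for C13 against DMSO, higher with sham and lower with TDP-43, and the same interaction of -1.88. Without TMM factors DMSO/sham (113, 68.7 and 59.0 CPM) overlapped both DMSO/TDP-43 (114, 162 and 79.4 CPM) and C13/sham (154, 120 and 92.8 CPM), so the separation in these pairs depends on the scaling. C13/TDP-43 then had 63.8, 68.5 and 55.3 CPM and stayed below C13/sham and DMSO/TDP-43.

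Nascent Rps3a1, of the small subunit, had opposite directions for C13, lower with sham and higher with TDP-43, again without overlap under TMM scaling. It had 372, 663 and 377 CPM in DMSO/sham, 348, 264 and 319 CPM in C13/sham, 259, 320 and 224 CPM in DMSO/TDP-43, and 448, 329 and 511 CPM in C13/TDP-43. The log2 interaction was 1.28 (SE 0.69, edgeR adjusted p = 0.696). Without TMM factors C13/sham (369, 255.5 and 205 CPM) stayed below DMSO/sham, but C13/TDP-43 (478, 347 and 520 CPM) overlapped DMSO/TDP-43 (281, 359 and 170.5 CPM). Neither gene passed the test of the difference.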

How the results depend on the processing

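With no filter on low counts and with DESeq2, 1 member (Rpl4) was called for the interaction in total RNA. In nascent RNA 1 member was called for aggregates under C13 and 1 for C13 in sham cells (Rpl9 in both). Without the filter, 124 of 18001, 30 of 11805 and 29 of 11805 genes were called in that order. DESeq2 called 146, 75 and 28 genes, and edgeR with the filter called 0. Nascent medians with the library sizes of total RNA were -1.14 for aggregates under DMSO, -1.32 for C13 in sham cells and 1.18 for the interaction. For nascent to other reads, library sums without TMM gave 54 members apart from 0, 3 above and 51 below. The members' median was then -1.01, where the median gene lies near -1.16. Genes kept on the nascent table gave 9 members above and 18 below. Library sums also turned Rps4x (-0.016), Rpl41 (-0.50), Rps9 (-0.49), Rplp0 (-0.15), Rpl26 (-0.24), Rpl32 (-0.30), Rpl17 (-0.23), Rpl37a (-0.13), Rpsa (-0.44), Rpl3 (-0.22), Rpl13a (-0.35) and Rpl18 (-0.53) to the other side; the reference alone differs there, by 1.16. With a library left out, 18 to 28 members were apart from the typical gene, 15 to 23 above and 1 to 5 below, and no member was called in a comparison of groups. Medians in total RNA then ran from -0.46 to 0.13 and -0.47 to 0.087 for aggregates under DMSO and C13.

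Same-numbered libraries had deviations with r from -0.069 to 0.23 in total RNA and -0.028 to 0.060 in nascent RNA. In total RNA 5 of 18 pairs were over 0.1, and in nascent RNA 0 of 18. The highest in total RNA were those of replicate 3 between DMSO/sham, C13/sham and C13/TDP-43, at 0.18 to 0.23. DMSO/TDP-43 replicate 3 had -0.045 to 0.017 with these. Differently numbered libraries were not compared, so these values have no reference, and the main fit did not treat the numbers as pairs. Replicate 3 was also lowest in median member level and in the nascent share of all reads in 4 of 4 groups. The replicate block gave total medians of -0.16 for aggregates under DMSO and -0.16 under C13, 0 members called in each comparison of groups, and 27 apart from the typical gene. Without DMSO/TDP-43 replicate 3 and C13/sham replicate 3, these medians were -0.17 and -0.43. Nascent counts under 20 on average, in 5 members, limit what could be detected there.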

Other observations

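Subunits of the other large complexes also differed widely in nascent share. Proteasome subunits had a median level of 111 CPM and mitochondrial ribosomal proteins 49.5 CPM, against 351 CPM for the members. Psmb1, of the proteasome core, had 6.30% at 408 CPM, whereas Psmc3, an ATPase of its cap, had 0.905% at 249 CPM. In the ratio of nascent to other reads Psmb1 lay 2.22 above the typical gene and Psmc3 lay at -1.25 on the log2 scale, and edgeR called both. Of the mitochondrial ribosome, Mrps2 had 8.41% and Mrpl33 8.35%, and Mrps27 had 0.757%. Larp1, which binds oligopyrimidine tracts, had 4.66% at 225 CPM.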
